A study of Mus musculus with 6 samples.

Results

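The genes described here are 9 regulators of apoptosis: the pore-forming effectors Bax, Bak1 and Bok, the survival members Bcl2, Bcl2l1 (BCL-XL) and Mcl1, and the inhibitor of apoptosis proteins (IAPs) Birc2, Birc3 and Xiap. They were chosen by name, 1 row each, from the 37757 rows of the authors' deposited table, and all 9 are among its 14748 tested rows. The cells were kidney epithelial cells of strain C57/Bl6J mice aged 8 weeks, grown either attached (3 libraries) or without attachment for 4 h (3 libraries). Both groups carried the genotype Bim-/- Bmf-/-, so every value below comes from cells labelled as lacking 2 BH3-only proteins, and no cells with intact genes are part of the comparison. The suspended cells are titled for anoikis, the death of epithelial cells that have lost their anchorage. The table holds 1 FPKM per gene and condition. FPKM scales the fragments of a gene for transcript length and sequencing depth, so levels of different genes can be set side by side. Its columns are named by letters, and the letter S was read as suspension.

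BAX and BAK sit dormant in healthy cells and, once activated by BH3-only proteins, assemble into pores in the outer mitochondrial membrane that release cytochrome c. BCL-2, BCL-XL and MCL-1 hold the BH3-only proteins and the activated effectors in check. Downstream, cytochrome c and APAF1 activate caspase 9, which starts the caspase cascade. XIAP binds and inhibits caspases, whereas the proteins made from Birc2 and Birc3 (cIAP1 and cIAP2) are ubiquitin ligases of TNF receptor signalling that restrain the alternative NF-kB pathway. Detachment from matrix is a known trigger of the mitochondrial route in epithelium.

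In suspension, all 3 survival members fell, 2 of the 3 IAPs rose, and of the effectors Bok fell while Bax and Bak1 were not called. Calls are q below 0.05 in the authors' deposited table. In the 9 genes, 2 were called higher and 4 lower, and 3 were not called. Over all tested rows, 24.7% were called higher and 26.3% lower, so the 22.2% of these genes called higher lies near the background and the 44.4% called lower lies above it. At q below 0.01, 1 gene was higher (Birc3) and 4 were lower, against 20.3% and 21.0% of all tested rows. With a 2-fold change also required, 1 was higher (Birc3) and 2 were lower (Bok and Bcl2), against 12.4% and 7.12% of tested rows. The median log2 fold change of the 9 was -0.12, beside -0.03 over all tested rows. With so few genes, these shares describe the set and no more.

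**Figure D1:**
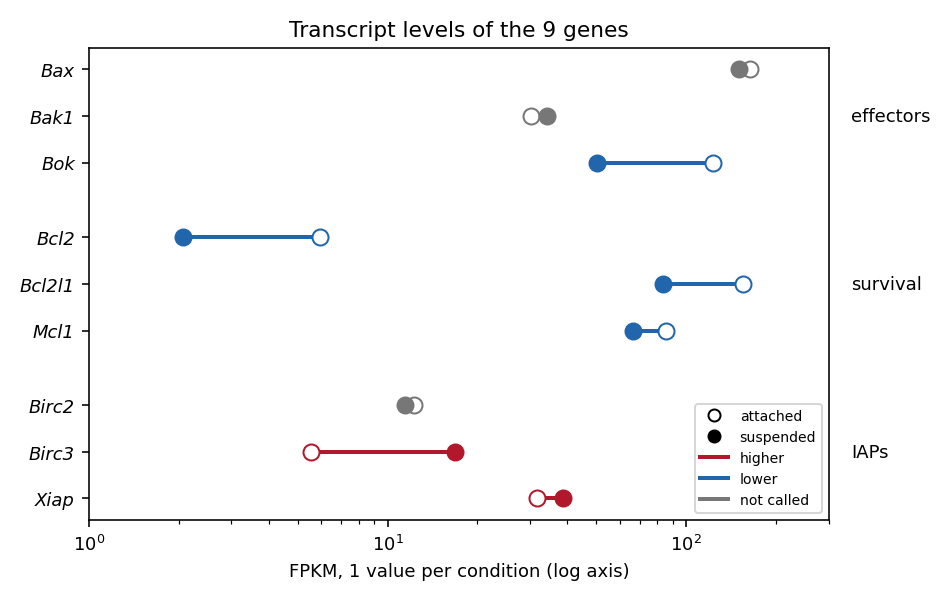
FPKM of the 9 genes on a log axis, with open circles for attached and filled circles for suspended cells (1 deposited value per condition) and lines coloured by call. Bok, Bcl2, Bcl2l1 and Mcl1 move left, Birc3 and Xiap move right, and Bax stays at the top of the range at 164 and 151 FPKM.

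No spread between libraries can be given, because values per library were not analysed here. A rough error was therefore taken from the deposited test: the log2 fold change divided by the normal quantile of its p gives the standard error that such a p implies. For the 4 genes at the smallest p of the table (Bok, Bcl2, Bcl2l1 and Birc3) this is an upper limit, so their intervals are drawn too wide rather than too narrow. The labels call the libraries independent but name no culture or animal for each, so this error may hold technical spread only. In bulk RNA, fewer cells of a type and less RNA per cell cannot be told apart.

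**Figure D2:**
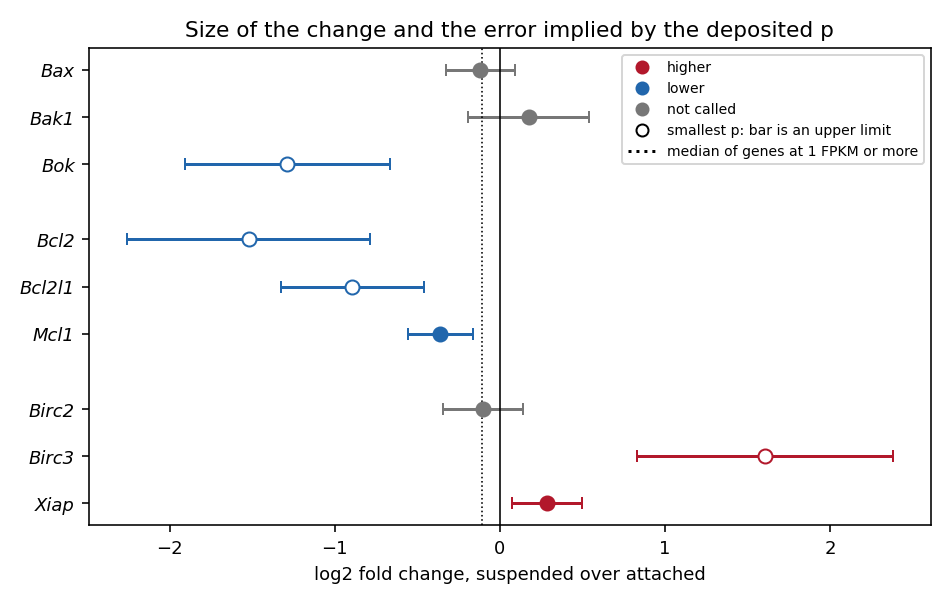
Log2 fold change (suspended over attached) of each gene with the 95% interval implied by its deposited p. Open circles mark genes at the smallest p, whose bars are upper limits, and the dotted line marks the median of genes with at least 1 FPKM in both conditions (-0.11). The intervals of Bax, Bak1 and Birc2 cross 0 and those of the other 6 genes do not.

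Kidney markers were abundant in both conditions. The 9 epithelial markers looked at, among them Epcam (261 and 253 FPKM) and Cdh16, the kidney cadherin (441 and 346 FPKM), lay between 72.6 and 773 FPKM attached and between 30.9 and 752 FPKM suspended, with 3 called higher and 5 lower. Of the 4 leukocyte markers, 3 were higher in suspension in the authors' deposited table: Ptprc (CD45) at 1.42 and 12.4 FPKM, Csf1r at 0.729 and 3.25 FPKM, and Cd68 at 23.4 and 34.9 FPKM. The other one, the macrophage marker Adgre1 (listed as Emr1), was at 0 attached and 0.00328 FPKM suspended. Summed, the leukocyte markers stood at 25.6 and 50.6 FPKM, those of endothelium at 0.353 and 0.298, those of fibroblasts at 0.221 and 1.96, and those of podocytes at 1.60 and 7.95 FPKM. In the last list Podxl alone gave 1.60 and 7.87 FPKM, and Nphs1 and Wt1 were at 0 attached and at most 0.0576 FPKM suspended. Among the fibroblast markers Pdgfra alone gave 0.155 and 1.81 FPKM. The other fibroblast markers were not tested and lay at or below 0.0860 FPKM in both conditions. The part of these shifts in the changes of the 9 genes was not tested.

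Among the effectors, Bax had the highest level of all 9 genes in both conditions. The authors' deposited table lists it at 164 FPKM attached and 151 FPKM suspended (q = 0.375), a log2 fold change of -0.12 with an implied 95% interval from -0.33 to 0.09. Bax was thus not called, and a change between 0.797-fold and 1.07-fold is compatible with its p. Bax (chromosome 7, positions 45461695 to 45466898, mm10) is the effector that moves from the cytosol to mitochondria during apoptosis. Its 5′ end overlaps an annotated longer transcript of the same strand, Gm45808.

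Bak1 encodes the effector that resides on mitochondria. Its deposited FPKM was 30.2 attached and 34.1 suspended, and Bax exceeded it 5.41-fold attached and 4.42-fold suspended. The change of Bak1, log2 0.17, was not called (q = 0.470 by the authors' deposited table), and its implied interval, from -0.20 to 0.54, was the widest of the 5 genes not at the smallest p. The annotated gene lies on the minus strand of chromosome 17, positions 27019810 to 27029009 (mm10), inside the opposite-strand gene Ggnbp1, and the deposited Bak1 row spans 63.2 kb, far more than the annotated 9.2 kb. The row naming Ggnbp1 with Zbtb9 stood at 10.7 and 13.6 FPKM (q = 0.225 by the authors' deposited table). Whether strand was counted is not given in the sources used here, so the Bak1 value is uncertain.

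Bok was the effector that fell. Its protein resembles BAX and BAK and is known to be kept low by degradation at the endoplasmic reticulum rather than by binding to survival proteins. Bok went from 123 to 50.4 FPKM, a 2.44-fold fall (log2 -1.29, implied interval from -1.91 to -0.67, q = 0.000185 by the authors' deposited table). Only 5.29% of tested rows had a lower log2 fold change. The implied interval of Bok does not overlap that of Bax or of Bak1. Bok (chromosome 1, positions 93685694 to 93695762, mm10) overlaps no other annotated gene. In attached cells Bok was the third most abundant of the 9 genes, and it made up 38.8% of the summed effector FPKM, against 21.4% in suspension. The ratio of Bax to Bok went from 1.33 to 2.99.

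The survival members fell together but by different amounts. Bcl2l1 was the main one in both conditions. The authors' deposited table lists Bcl2l1 at 155 FPKM attached and 83.4 FPKM suspended, a 1.86-fold fall (log2 -0.90, implied interval from -1.33 to -0.46, q = 0.000185). Attached, its level stood beside that of Bax (ratio of Bax to Bcl2l1 1.05), and in suspension Bax was 1.81 times as high. Bcl2l1 (chromosome 2, positions 152780668 to 152831728, mm10) can be spliced into a long survival form and a short form that promotes death, and 1 value per gene cannot tell them apart.

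Mcl1 encodes a survival protein with a very short life, whose level follows its transcript and its degradation closely. Mcl1 went from 85.4 to 66.5 FPKM, and so fell by 22.1% (log2 -0.36, implied interval from -0.56 to -0.16, q = 0.00113 by the authors' deposited table). This was the smallest change among the 4 genes that fell. The interval of Mcl1 overlaps that of Bcl2l1, but the latter is an upper limit, so the overlap does not show that the falls are alike. Mcl1 (chromosome 3, positions 95658721 to 95663176, mm10) stood at rank 4 of the 9 levels attached and at rank 3 suspended, where it passed Bok. Its share of the summed survival FPKM was 34.6% attached and 43.8% suspended, while that of Bcl2l1 was 62.9% and 54.9%.

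Bcl2, the founding member of the family, was scarce. It was listed at 5.93 FPKM attached and 2.07 FPKM suspended, a 2.87-fold fall (log2 -1.52, implied interval from -2.26 to -0.79, q = 0.000185 by the authors' deposited table). Bcl2 made up 2.41% of the summed survival FPKM attached and 1.36% suspended, and Bcl2l1 exceeded it 26.2-fold and 40.4-fold. Its fall was the largest in log2 of the 9 genes, but because the level is low it shrank to -1.18 when 1 FPKM was added to each value. Bcl2 spans chromosome 1, positions 106538178 to 106714274 (mm10), and its end is overlapped by the antisense RNA D630008O14Rik. That RNA was listed at 2.39 and 0.684 FPKM (q = 0.0755 by the authors' deposited table), so reads of the pair may have been mixed if strand was not counted. The gene also holds the microRNA Mir3473f on its own strand.

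The 250 bases upstream of the first RefSeq start (GRCm38.p6) are shown for the 2 survival genes that fell most, since they shared a direction. Bcl2 is read from chr1:106714291-106714540 and Bcl2l1 from chr2:152831729-152831978, both on the minus strand, 5′ to 3′. Capitals mark every match on either strand to 1 of 8 motifs: the GC box GGGCGG, the TEAD motif GGAATG, the E-box CACGTG, the AP-1 motif TGANTCA, the CRE TGACGTCA, the antioxidant response core TGACNNNGC, the FOXO motif GTAAACA and the kB motif of NF-kB.
Bcl2: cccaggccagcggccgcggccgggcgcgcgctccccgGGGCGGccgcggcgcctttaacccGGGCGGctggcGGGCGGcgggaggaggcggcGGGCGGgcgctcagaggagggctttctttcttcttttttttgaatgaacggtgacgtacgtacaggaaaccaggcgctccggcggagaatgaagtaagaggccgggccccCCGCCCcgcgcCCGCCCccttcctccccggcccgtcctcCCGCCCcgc
Bcl2l1: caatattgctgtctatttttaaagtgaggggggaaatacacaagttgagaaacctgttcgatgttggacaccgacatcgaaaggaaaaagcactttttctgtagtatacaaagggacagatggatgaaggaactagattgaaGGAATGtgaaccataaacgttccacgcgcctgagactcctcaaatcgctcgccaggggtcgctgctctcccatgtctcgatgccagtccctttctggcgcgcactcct
The Bcl2 window holds 7 GC boxes and 36 CpG, with 74.8% G and C, where the median of 32851 upstream windows is 52.4% and 6 CpG. The Bcl2l1 window has 47.6% G and C and 12 CpG, and holds 1 TEAD motif, 108 bases before the start. Of all upstream windows 32.7% hold a GC box and 12.6% the TEAD motif. Mcl1, which also fell, has 64.4% G and C, with 1 GC box and 1 TEAD motif. No motif of the 8 was present in the windows of all 4 genes that fell: the GC box was in those of Bok, Bcl2 and Mcl1 and in none of the 3 windows of Bcl2l1. The GC box was also in windows of Bax, Birc2 and Xiap, which were not called lower. In all, 6 of the 9 genes held it, against 35.4% of all genes with such windows. The TEAD motif was found for Bcl2l1 and Mcl1 alone of the 9 genes. These are matches of letters and say nothing about binding.

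**Figure D3:**
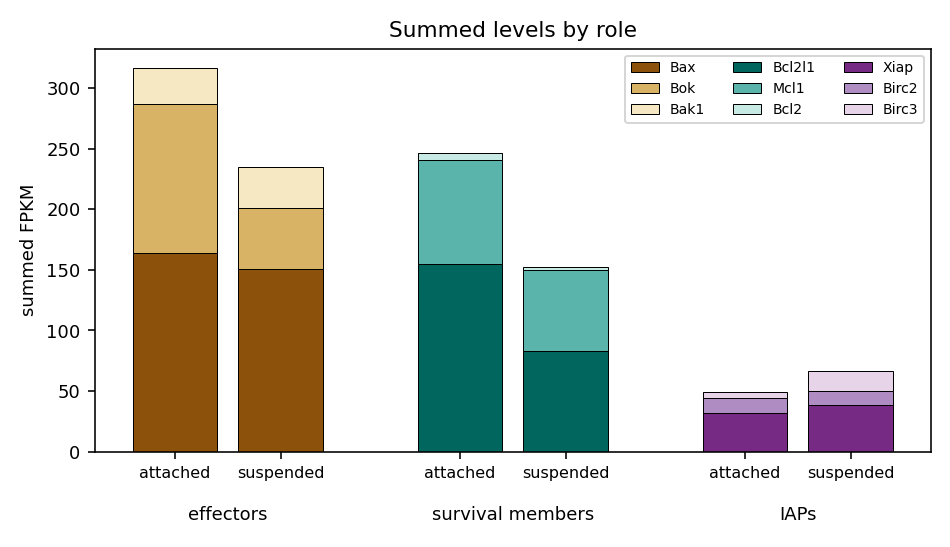
Summed FPKM of the effectors, the survival members and the IAPs Birc2, Birc3 and Xiap in attached and suspended cells, stacked by gene (1 deposited value per condition, no error available). The survival sum drops from 246 to 152 FPKM, the effector sum from 317 to 235 FPKM, and the IAP sum goes from 49.5 to 66.8 FPKM.

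Summed over roles, the survival members went from 246 to 152 FPKM (-38.3%), the effectors from 317 to 235 FPKM (-25.8%) and the IAPs from 49.5 to 66.8 FPKM (+35.0%). These sums have no test. The IAP sum holds Birc2, Birc3 and Xiap only. It leaves out Birc5 (32.9 to 21.9 FPKM) and Birc6 (27.0 to 18.4 FPKM), both called lower, so it does not describe the whole IAP family. Of the effectors, only Bok was called lower (123 to 50.4 FPKM). Bax (164 to 151 FPKM) and Bak1 (30.2 to 34.1 FPKM) were not called. The ratio of effector to survival FPKM was 1.29 attached and 1.55 suspended. Leaving out Bok and Bcl2, so that Bax and Bak1 are set against Bcl2l1 and Mcl1, the ratio went from 0.806 to 1.23. Both versions were higher in suspension, and both compare RNA, not protein. The second version leaves out Bok, the effector that fell, so its larger rise follows from that choice and is no separate support. A ratio within a condition does not depend on how the conditions are scaled against each other.

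Of the IAPs, Birc3 rose most and Birc2, its neighbour, was not called. Birc3 went from 5.53 FPKM attached, the lowest of the 9 levels, to 16.8 FPKM suspended. That is a 3.04-fold rise (log2 1.60, implied interval from 0.83 to 2.38, q = 0.000185 by the authors' deposited table), and 90.2% of tested rows had a lower log2 fold change. Birc2 stood at 12.3 FPKM attached and 11.4 FPKM suspended, a log2 fold change of -0.10 with an implied interval from -0.35 to 0.14 (q = 0.518 by the authors' deposited table). The sign of that small value turned to 0.005 when the conditions were centred on the median of genes with at least 1 FPKM in both. The intervals of the pair do not overlap. Attached cells thus held less Birc3 than Birc2 RNA (ratio 0.451), and suspended cells more (ratio 1.47). As for the rest of the 9 genes, any part of the higher leukocyte markers given above in the rise of Birc3 was not tested.

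Birc2 (chromosome 9, positions 7818236 to 7835255, mm10) and Birc3 (chromosome 9, positions 7848699 to 7873186, mm10) lie in tandem on the minus strand, 11.6 kb apart as annotated, with 0 annotated genes between them. They arose by duplication, so reads from near-identical stretches could be shared between them. Because the tandem copies differ in their change, their upstream sequences are shown, 250 bases before the first RefSeq start of each, minus strand, 5′ to 3′, with capitals as above. Birc2 is read from chr9:7837058-7837307 and Birc3 from chr9:7873171-7873420 (RefSeq, GRCm38.p6).
Birc2: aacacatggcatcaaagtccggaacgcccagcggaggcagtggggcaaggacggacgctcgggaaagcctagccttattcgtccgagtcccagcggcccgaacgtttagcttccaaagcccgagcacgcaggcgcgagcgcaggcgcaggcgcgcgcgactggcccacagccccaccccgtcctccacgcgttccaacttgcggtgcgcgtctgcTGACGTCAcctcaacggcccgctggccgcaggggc
Birc3: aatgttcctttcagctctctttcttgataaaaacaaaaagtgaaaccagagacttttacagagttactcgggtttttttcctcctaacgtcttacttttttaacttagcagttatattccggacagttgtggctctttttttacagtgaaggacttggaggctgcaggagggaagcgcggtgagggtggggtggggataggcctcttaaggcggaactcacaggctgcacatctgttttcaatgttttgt
The Birc2 window is rich in G and C (68.4%, 31 CpG) and holds a CRE 35 bases before the start, a motif found in 1.55% of all upstream windows. The Birc3 window has 43.6% G and C and 6 CpG, and none of the 8 motifs is in it. The kB motif occurs in 7.25% of all upstream windows and, of the 9 genes, in 1 window of Bcl2l1 alone. That Birc3 shows no such match says only that these letters are absent from the window shown.

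Among Birc2, Birc3 and Xiap, Xiap had the highest FPKM in both conditions, and it encodes a direct inhibitor of caspases. Xiap went from 31.7 to 38.6 FPKM, a rise of 21.7% (log2 0.28, implied interval from 0.07 to 0.50, q = 0.0216 by the authors' deposited table). It was the smallest change among the 6 genes called and was lost at q below 0.01. Xiap (chromosome X, positions 42059679 to 42109656, mm10) kept rank 5 of the 9 levels. It made up 64.1% of the summed FPKM of Birc2, Birc3 and Xiap attached and 57.8% suspended, while Birc3 went from 11.2% to 25.1%.

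In order of level, attached cells had Bax, Bcl2l1, Bok, Mcl1, Xiap, Bak1, Birc2, Bcl2 and Birc3, from 164 down to 5.53 FPKM. Suspended cells had Bax, Bcl2l1, Mcl1, Bok, Xiap, Bak1, Birc3, Birc2 and Bcl2, from 151 down to 2.07 FPKM. Neighbours such as Xiap and Bak1 (31.7 and 30.2 FPKM attached) or Bcl2 and Birc3 (5.93 and 5.53 FPKM attached) lie close, and without a spread within a condition their order could not be tested. Among tested rows, the mean level of Bax stood at percentile 96.8 and that of Bcl2l1 at percentile 95.4, while Birc2 (53.7), Birc3 (52.2) and Bcl2 (32.1) were ordinary or low.

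The 3′ ends of the transcripts differ too. The pentamer ATTTA, the core of AU-rich elements that mark short-lived messages, was counted in the longest annotated 3′ end after the coding region (GENCODE M21). Xiap holds 16 copies, Bcl2 15, Mcl1 8 and Birc3 7, beside a median of 2 over 11782 tested genes. Bok, Bcl2l1 and Birc2 hold 1 copy each and Bax and Bak1 hold 0. Per kilobase, Birc3 has 4.58, Xiap 3.42, Mcl1 3.40 and Bcl2 2.95 copies, against a median of 1.31. Birc2 (1.90) and Bok (1.65) also lie above that median and Bcl2l1 (0.676) below it. The 3′ ends of Xiap and Bcl2 are long, at length percentiles 94.7 and 95.8. The 4 genes with many copies include 2 that rose and 2 that fell, so the count did not go with 1 direction.

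Over the 2 conditions, each gene was also matched to the tested row nearest to it in log2 FPKM, among 14271 other rows of a single gene. The row nearest to Birc3 was the chemokine gene Ccl5 (5.48 and 16.2 FPKM, distance 0.056). The row nearest to Bcl2l1 was the kinase gene Akt1 (150.0 and 85.8 FPKM, distance 0.064), and that nearest to Bok was Oat, which encodes ornithine aminotransferase (119 and 50.9 FPKM, distance 0.052). For Bax it was Gdi2 (164 and 151 FPKM, distance 0.0007). With 2 values per gene, such matches describe level and change only.

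The rest of the mitochondrial pathway was read from lists of genes by role, in which the 9 genes are included. Counts are to be read against the 24.7% of tested rows called higher and the 26.3% called lower. In lists this short, they describe the genes listed and no more. The initiator Casp9, which XIAP inhibits, rose from 4.86 to 10.3 FPKM, and Apaf1, which activates it, rose from 8.21 to 16.9 FPKM, both at q = 0.000185 by the authors' deposited table.

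**Figure D4:**
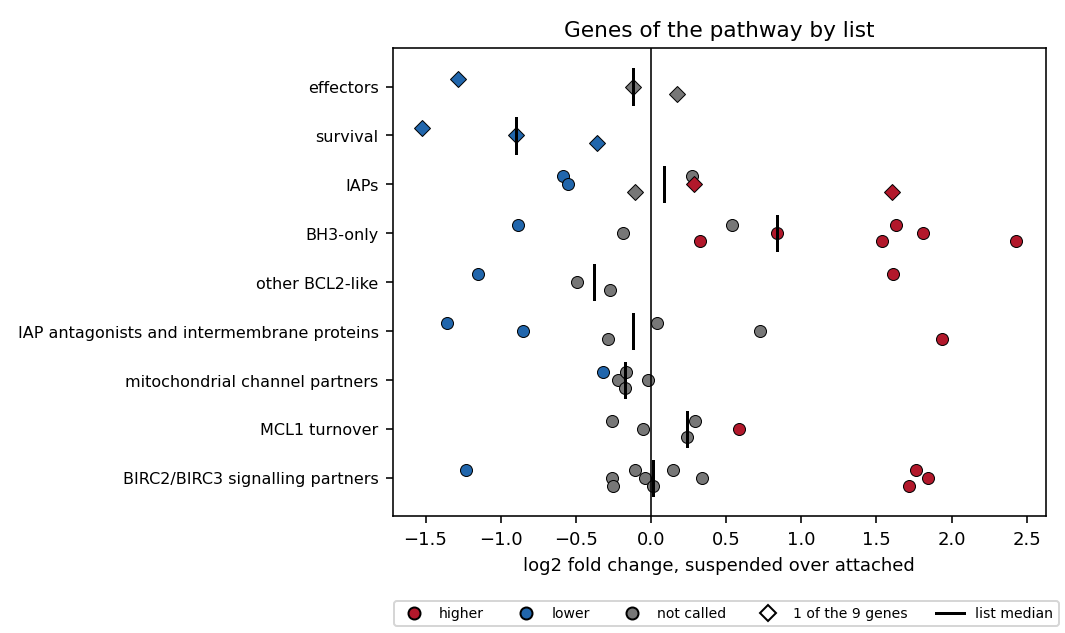
Each point is a tested gene of a pathway list at its log2 fold change (suspended over attached), coloured by call, with diamonds for the 9 genes and a black bar at the list median. The 3 tested survival members lie left of 0, and the BH3-only list has 6 of 9 called higher, Bcl2l11 among them.

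Of the BH3-only genes, several of whose proteins activate the effectors, 6 of 9 tested rose and 1 fell (median log2 0.84). These 9 include Bcl2l11 (Bim) and Bmf, both labelled as deleted in these cells. Without that pair, a count added after the data were seen, 5 of 7 rose and 1 fell, with the same median of 0.84. Bbc3 (PUMA) went from 10.1 to 35.6 FPKM and Pmaip1 (NOXA, a partner of MCL-1) from 60.6 to 188 FPKM, both at q = 0.000185 by the authors' deposited table. The row of Bcl2l11 stood at 9.53 and 51.4 FPKM (q = 0.000185 by the authors' deposited table). That of Bmf stood at 2.95 and 4.30 FPKM and was not called (q = 0.287 by the authors' deposited table). A value per gene cannot show which exons it comes from. Among other BCL2-like genes 1 of 4 rose, Bcl2l14 (0.527 to 1.60 FPKM), and 1 fell, Bcl2l15 (9.36 to 4.22 FPKM).

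In the wider IAP family, 2 of 6 tested genes were called higher and 2 lower, beside 24.7% and 26.3% of all tested rows. The 2 that rose are Birc3 and Xiap. The 2 that fell are Birc5 (survivin, which acts in cell division), from 32.9 to 21.9 FPKM, and Birc6, a very large ubiquitin-conjugating IAP, from 27.0 to 18.4 FPKM (q = 0.0421 by the authors' deposited table). Birc7, Naip1, Naip5 and Naip6 were not tested and lay below 0.1 FPKM in both conditions. Of the genes for IAP antagonists and proteins released from mitochondria, 1 of 6 rose and 2 fell. Xaf1, an antagonist of XIAP, went from 2.66 to 10.2 FPKM. Aifm1, an oxidoreductase of the intermembrane space, went from 54.9 to 21.4 FPKM, and Htra2, a protease that binds IAPs, from 40.2 to 22.2 FPKM (q = 0.00157 by the authors' deposited table). Diablo, the best known IAP antagonist and named here after its values were seen, was at 27.5 and 28.3 FPKM (q = 0.824 by the authors' deposited table).

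Of 11 partners of cIAP1 and cIAP2 in TNF receptor signalling, 3 rose and 1 fell, beside 24.7% and 26.3% of all tested rows. Their median log2 was 0.01. The 3 that rose were Relb (7.16 to 25.7 FPKM) and Nfkb2 (15.4 to 52.5 FPKM), the subunits of the alternative NF-kB pathway, and the adaptor Traf1 (1.17 to 3.85 FPKM). The 1 that fell was Map3k14 (NIK), the kinase of that pathway that cIAPs mark for degradation, from 6.45 to 2.75 FPKM. All 4 had q = 0.000185 by the authors' deposited table. This is its smallest q, shared by 4278 tested rows, Birc3 among them. Regulators of MCL-1 turnover had 1 of 5 higher, Gsk3b (28.6 to 43.0 FPKM), a kinase that marks MCL-1 for degradation, and 0 lower. Genes of mitochondrial channel partners had 0 of 5 higher and 1 lower, Vdac1 (168 to 135 FPKM, q = 0.00526 by the authors' deposited table).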

How the data were processed

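Messenger RNA from 6 libraries, 3 per condition, was sequenced on an Illumina HiSeq, per the labels' protocols. The submitters' processing notes name mm10 together with Bowtie, TopHat, Cuffdiff and Cufflinks 1.0.3. How they were set, which annotation served and whether strand was counted is not given in the sources used here. In the deposited table the authors give 1 FPKM per gene and condition, so depth is unknown. Low FPKM showed no steps from which reads could be recovered. Per the file headers it also has q-values and p-values, a score (the test statistic) and a log2 fold change, all made by the authors. The p-value goes no lower than 5e-05, shared by 4278 tested rows.

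Rows were taken by gene name. Starts were raised by 1, since 7711 of 13522 deposited starts then equalled the GENCODE M21 (GRCm38) start and 191 without it, and 13509 positions overlapped. Log2 ratios recomputed from FPKM differed from the deposited ones by at most 4.0e-05. Calls are the deposited q below 0.05. No own test between conditions was run, because the deposited table gives 1 value per condition and values per library were not analysed here. Implied errors are the log2 fold change over the normal quantile of the deposited p. Intervals are 1.96 errors wide on each side. The adjustment, calls and intervals were run on simulated data with normal errors and no smallest p. That run checks the arithmetic only and cannot show that the implied intervals suit the deposited p. RefSeq upstream windows matched 9 of 9 genes (14 windows), and no protein sequence was used here.

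The members, lists and alternatives were chosen with earlier results of these data known. The text names the 9 genes, up to 4 called genes per list with the largest log2 change, and the nearest row of each of the 9, part of which are printed. Some genes of the lists are not reported here. Alternatives covered the threshold, a 2-fold minimum, the adjustment, a 1 FPKM filter, pseudocounts of 1 and 0.1, and 3 scalings. The work used pandas 2.3.3, SciPy 1.17.1 and NumPy 2.4.6 under Python 3.11.15, with figures by matplotlib 3.10.9.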

Additional observations from a re-analysis of the deposited data

How the results depend on the processing

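Of 45 log2 fold changes of the 9 genes under pseudocounts and scalings, 45 stayed within the interval implied by the deposited p. No called gene turned sign, and the 2 values that did were those of Birc2, which was not called. The 3 scalings each raised the log2 values by 0.10 to 0.11. They were centring on the median of tested rows with at least 1 FPKM in both conditions (-0.11, beside -0.03 over all tested rows), the upper quartile, and the sum without mitochondrial and the 2 highest rows. These shifts are smaller than the narrowest implied half-width (0.20, Mcl1) and the smallest called change (0.28, Xiap). The scalings therefore could not take a value out of its interval or turn the sign of a called gene. Adding a pseudocount cannot turn a sign, and for the 4 genes at the smallest p the interval is an upper limit. The counts of 2 higher and 4 lower were the same with a recomputed Benjamini-Hochberg adjustment and with a mean of at least 1 FPKM. At q below 0.01 the higher count was 1 and the lower count 4. With a 2-fold minimum they were 1 and 2. The summed FPKM, which have no error, moved by more than 0.1 in log2: leaving out the highest gene took effectors from -0.43 to -0.86, survival members from -0.70 to -0.41 and IAPs from 0.43 to 0.66, and centring took them to -0.32, -0.59 and 0.54. Without Bok and Bcl2 the log2 change of effectors over survival members went from 0.27 to 0.61. These differences follow from which genes are summed and from the shift. For the effectors, the gene left out was Bax, which keeps Bok, the only effector called lower (123 to 50.4 FPKM). The effector sum without Bok was not among the alternatives, so the fall of that sum may rest on 1 gene.

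No paired analysis was possible because the deposited table holds 1 value per condition. For the same reason, leaving out each library was not run. Without depth or a spread between libraries, changes as small as that of Xiap rest on the authors' test alone.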

Other observations

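Genes of the same pathway share a row with a neighbour in 4 cases, and their part of the value cannot be separated. The row of Bcl2l2 (BCL-W, a survival member) with Gm20521 and Pabpn1 stood at 116 and 55.7 FPKM, and that of Sept4 (whose ARTS form antagonises XIAP) with Gm11492 at 90.2 and 35.0 FPKM, both at q = 0.000185 by the authors' deposited table. The row of Trim17 with the histone gene Hist3h2a stood at 12.3 and 42.5 FPKM (q = 0.000185 by the authors' deposited table). The row of Bcl2a1b with Mthfs stood at 2.44 and 2.96 FPKM (q = 0.437 by the authors' deposited table). The other Bcl2a1 copies and Bcl2l10, an ovarian survival member, were not tested and lay below 0.05 FPKM in both conditions.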
